A study of Equus caballus with 2 samples.

Results

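Chromosomes 7, 12 and 25 of the horse are the chromosomes on which DNA methylation was lowest in an equine sarcoid relative to skin. They were chosen by their mean difference in methylation between the 2 libraries described here, so that difference is given as a description and nothing is tested with it. Their members are the CpGs covered by 10 or more reads in each library: 127318 of 877053 CpGs in all, with 59463 on chromosome 7, 35187 on chromosome 12 and 32668 on chromosome 25. The other 28 chromosomes held 749735.

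Equine sarcoid is a skin tumour of horses that arises from fibroblasts and is associated with bovine papillomaviruses. Genomic DNA of horse 1 (Equus caballus) was profiled by reduced representation bisulfite sequencing (RRBS) in 1 library of tumour tissue (sarcoid) and 1 library of tumour distant skin, which served as the control. Frozen tissue was used for both, no treatment or age is given in the labels, and the question was how the tumour differs from skin of the same animal. With 1 library per tissue there is no replicate, so every interval below covers counting error only. A tissue sample is a mixture of cells, and a change in the mix of cells cannot be told apart from a change of methylation within them.

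In vertebrates, methyl groups sit mainly on the cytosine of CpG pairs. Most CpGs of a genome are methylated, CpG-dense islands at promoters usually are not, and loss of methylation over broad stretches with gain at some islands is a well-known feature of tumours. RRBS cuts DNA at CCGG sites and sequences the ends of short fragments after bisulfite has converted unmethylated cytosines, so it samples CpG-dense DNA more than the rest, and each CpG is read from the plus strand, the minus strand or both. A level is the percent of reads at a CpG that show a methylated cytosine, and differences are sarcoid minus skin in percentage points.

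On chromosome 7 the mean level was 48.2% in skin and 45.8% in the sarcoid, a difference of -2.38 points (95% interval of counting error -2.45 to -2.30). On chromosome 12 it was 51.1% and 48.2%, a difference of -2.90 (-3.0 to -2.80). On chromosome 25 it was 47.2% and 44.3%, a difference of -2.91 (-3.01 to -2.81). The sarcoid was thus lower by a few points on each, from skin levels that also rank high, at places 6, 2 and 8 of 31. The next chromosomes outside the choice were 21, at -1.75 points, and 28, at -1.73. Over the other 28 chromosomes the difference ran from -1.75 to -0.354 points with a median of -1.11.

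Relative to the median chromosome, the sarcoid library was deeper on these chromosomes. It still had fewer reads than skin there, with medians of 34, 33 and 33 per CpG against 41, 41 and 40. Depth is expressed here as log2 of sarcoid over skin reads at the member CpGs, corrected for the CpG density class and centred so that the median chromosome has 0. It was 0.24 on chromosome 7, 0.20 on chromosome 12 and 0.22 on chromosome 25. A further 7 chromosomes had like ratios, between 0.21 and 0.32, with methylation differences of -1.75 to -0.753 points, and the remaining 21 had ratios of -0.09 to 0.13 with differences of -1.69 to -0.354. Among the 10 chromosomes of largest ratio, Pearson's r of depth and difference was 0.71 (Spearman's rho 0.55). Over the remaining 21 it was -0.04 (rho 0.28), and over all 31 it was -0.55 (rho -0.38). The 10 include chromosomes 7, 12 and 25, which were chosen for their difference. These are descriptions over chromosomes of the same pair of libraries, and the part of depth in the difference was not tested.

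**Figure D1:**
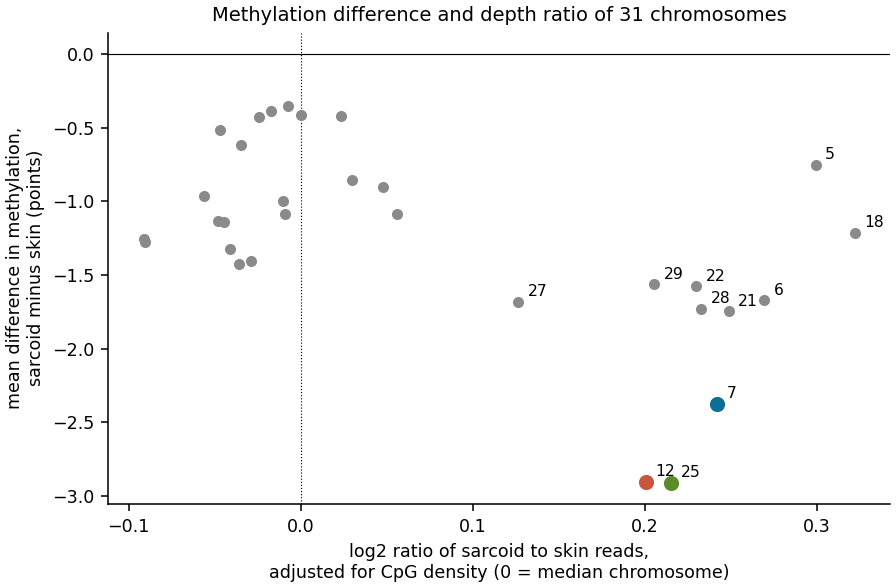
Each point is 1 of 31 chromosomes, with log2 of sarcoid over skin reads (adjusted for CpG density, 0 at the median chromosome) on the x axis and the mean methylation difference in points on the y axis. Chromosomes 7, 12 and 25 lie lowest, at -2.38, -2.90 and -2.91 points, at depth ratios that 7 other chromosomes share.

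Most CpGs of these chromosomes moved little, and a minority of large decreases made up the difference. On chromosome 7, 44.1% of CpGs had a lower level in tumour tissue and 36.0% a higher one. On chromosome 12 the shares were 45.8% and 36.9%, and on chromosome 25 45.2% and 36.1%. The spread was lopsided: the 5th percentile of the differences was -34.3 points and the 95th 22.2 on chromosome 7, -37.8 and 25.4 on chromosome 12, and -37.1 and 23.8 on chromosome 25.

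CpGs at least 25 points lower in the sarcoid numbered 5294 on chromosome 7 (8.90%), 3842 on chromosome 12 (10.9%) and 3489 on chromosome 25 (10.7%), beside 7.25% of all CpGs in the genome. CpGs at least 25 points higher numbered 2455 (4.13%), 1832 (5.21%) and 1515 (4.64%), beside 4.50%. The choice of chromosomes used this contrast, so nothing is read from these shares alone. Large decreases outnumbered large increases by 2.16 to 1, 2.10 to 1 and 2.30 to 1, against 1.51 to 1 over the other 28 chromosomes, among which chromosome 27 also had 2.17 to 1. The sum of all differences over the CpGs of a chromosome is called its net fall here. CpGs past 25 points in either direction carried 81.8% of the net fall of chromosome 7, 81.1% of that of chromosome 12 and 84.0% of that of chromosome 25, beside 86.7% on the other 28 chromosomes. The CpGs within 25 points still had means of -0.497, -0.655 and -0.549 points, against -0.158 on the other chromosomes.

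CpGs near the limit of 10 reads varied among themselves. The 4487 CpGs just inside it, whose lower coverage of both libraries was 10 reads, had a mean of -2.51 points, and the 4377 just outside it, at 9 reads, had -2.55. The 4275 at 11 reads had -1.23 and the 4935 at 8 reads -2.70. With every CpG weighted by its reads in each library the chromosomes were at -4.03, -5.37 and -4.51 points. That weighting gives deep CpGs of each library more weight, so it also moves with unlike coverage.

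Most windows along the chromosomes were lower in the sarcoid, and the decrease was uneven. The chromosomes were divided into windows of 1 Mb, of which 90, 31 and 39 held at least 50 member CpGs, and the 13 windows under that number held 290, 93 and 38 CpGs. The mean was lower in the sarcoid in 63 of 90 windows of chromosome 7 (70.0%), 28 of 31 of chromosome 12 (90.3%) and 33 of 39 of chromosome 25 (84.6%), beside 67.4% of all such windows of the genome. On the other 28 chromosomes the share ran from 47.8% to 82.6%. Chromosome 7 lay inside that range, near the share of the genome, and chromosomes 12 and 25 lay above it. The counting interval lay below 0 in 51, 24 and 25 windows and above 0 in 8, 1 and 2. Window medians were -1.21, -2.26 and -2.04 points.

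Windows differed from each other by more than counting error. The SD over windows was 2.06 points on chromosome 7, 1.75 on chromosome 12 and 1.94 on chromosome 25, while counting error alone gave an SD of 0.610, 0.607 and 0.639. On the other 28 chromosomes the SD over windows was between 1.59 and 3.61 points, so the windows of these chromosomes were no more scattered than elsewhere. Added in the order of what they carried, 4 windows of chromosome 7 with 33.8% of its CpGs made up 62.4% of the net fall. On chromosome 12, 5 windows with 42.2% of the CpGs made up 58.6%, and on chromosome 25, 4 windows with 34.4% made up 53.7%. On the other 28 chromosomes, the windows that made up most of the net fall in this order held 5.91% to 36.6% of the CpGs. Chromosome 12 lay above that range, and chromosomes 7 and 25 near its upper end. By this measure the net fall was not more concentrated here than elsewhere. A small net fall needs fewer windows, so these shares also move with its size. Neighbouring windows resembled each other weakly, with r of 0.15 over 83 pairs, 0.03 over 29 pairs and 0.26 over 37 pairs.

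**Figure D2:**
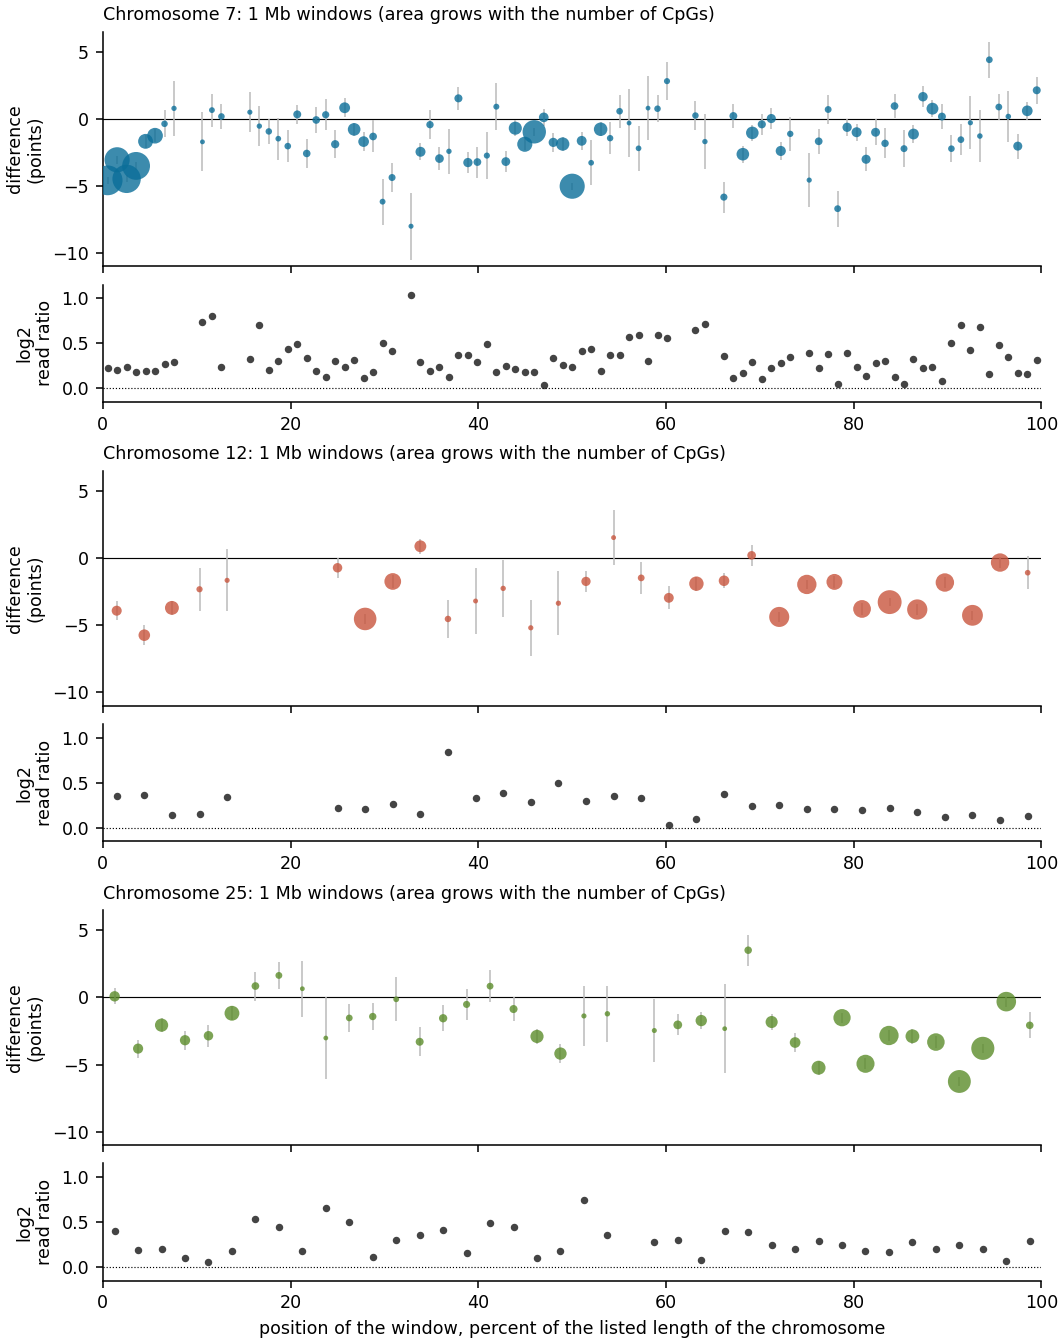
For each chromosome the upper panel shows the methylation difference of every 1 Mb window with at least 50 CpGs (points, area growing with the number of CpGs, grey bars the 95% counting interval) along the chromosome in percent of its listed length, and the lower panel shows the log2 read ratio of the same windows. Large points gather at the start of chromosome 7 and the far end of chromosomes 12 and 25, nearly all below 0, while the depth ratio is above 0 in all 160 windows and has its peaks in small windows.

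Most of the net fall lay in megabases rich in CpGs, which also held most of the CpGs. A window with more CpGs adds more to a sum, so each share is given with the share of CpGs. Windows with at least 1000 member CpGs numbered 12, 13 and 12, a limit set after the values were seen, and all 37 of these 37 windows were lower in the sarcoid. They held 59.2% of the CpGs and 81.2% of the net fall of chromosome 7, 83.2% and 87.4% on chromosome 12, and 71.3% and 81.5% on chromosome 25. Their mean difference was -3.26, -3.05 and -3.33 points, alike on all 3 chromosomes. In the remaining windows the mean was -1.07 points on chromosome 7 (51 of 78 windows lower), -2.15 on chromosome 12 (15 of 18) and -1.86 on chromosome 25 (21 of 27). CpG-rich windows of chromosome 7 outside its first 4 Mb and the 49 to 50 Mb window lay between -1.91 and -0.711 points. Being rich in CpGs thus did not alone mark the larger falls of that chromosome.

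Among CpG-rich windows, 5 of 12, 7 of 13 and 5 of 12 were at least 3 points lower in the sarcoid, beside 19.4% of the 196 CpG-rich windows of the genome, a share in which these chromosomes are included. The other 7 chromosomes of like depth had 39 CpG-rich windows with a mean of -2.17 points, of which 35 were lower and 10 at least 3 points lower. The other 21 had 120, with a mean of -1.43 points, 103 lower and 11 at least 3 points lower. Pooled over the other 28 chromosomes, CpG-rich windows were at -1.60 points and the rest at -0.741. Chromosomes 1, 13 and 26 went the other way, with 0.288, -1.19 and -1.10 points in CpG-rich windows and -0.507, -1.44 and -1.40 in the rest.

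On chromosome 7 the net fall sat in 2 places. Its first 4 Mb, from position 1 to 4000000, held 20104 CpGs (33.8%) whose mean went from 58.1% in skin to 54.1% in the sarcoid, a difference of -3.99 points that carried 56.8% of the net fall. The window from 49000001 to 50000000 held 4073 CpGs (6.85%) at -5.04 points and carried 14.5%. There, 462 CpGs were at least 25 points lower and 88 at least 25 points higher, and all 10 of its 10 bins of 100 kb were lower. The other 35286 CpGs of the chromosome (59.3%) had a mean of -1.15 points and carried 28.7%. The 2 places were set apart for their falls, so a remainder nearer 0 comes with that choice. Depth was alike in these places and elsewhere: the ratio was 0.21 in the first 4 Mb, 0.24 in the 49 to 50 Mb window and 0.26 elsewhere.

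The other 7 CpG-rich windows of chromosome 7 lay between -1.91 and -0.711 points, all with counting intervals below 0. The window from 45000001 to 46000000, with 3512 CpGs and a depth ratio of 0.18, was at -0.981 points, and the window from 43000001 to 44000000, with 1034 CpGs and 0.21, was at -0.711. Within the first 4 Mb the 4 windows were at -4.60, -3.07, -4.49 and -3.52 points, with 8, 7, 10 and 8 of 10 bins of 100 kb lower. The window from 3000001 to 4000000 spanned bins from -8.36 to 7.53 points, so this stretch was patchy at that scale.

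On chromosome 12 the net fall was spread more broadly. The stretch from 24000001 to 32000000 held 19679 CpGs (55.9%) at -3.25 points and carried 62.6% of the net fall. The window from 9000001 to 10000000 carried 14.5% with 3262 CpGs at -4.54 points, and the first 3 Mb carried 10.9% with 2526 CpGs at -4.40. The other 9720 CpGs were at -1.26 points and carried 12%. The 8 windows from 24 to 32 Mb ranged between -4.39 and -1.78 points, and the next window, from 32000001 to 33000000, was at only -0.333 points (-0.741 to 0.0741) over 2140 CpGs.

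On chromosome 25 the stretch from 30000001 to 38000000 held 17379 CpGs (53.2%) and carried 73.5% of the net fall, with a mean of 49.5% in skin and 45.4% in the sarcoid and a difference of -4.02 points. The other 15289 CpGs were at -1.65 points. The window from 36000001 to 37000000 alone carried 22.2% of the net fall with 10.3% of the CpGs. All 10 of its 10 bins of 100 kb were lower, from -15.7 to -1.94 points, and 595 of its 3364 CpGs were at least 25 points lower against 186 at least 25 points higher. As on chromosome 12, the last full megabase listed differed little: the window from 38000001 to 39000000 was at -0.310 points (-0.691 to 0.0708) over 2436 CpGs, with a depth ratio of 0.07, the lowest of the CpG-rich windows of this chromosome.

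**Figure D3:**
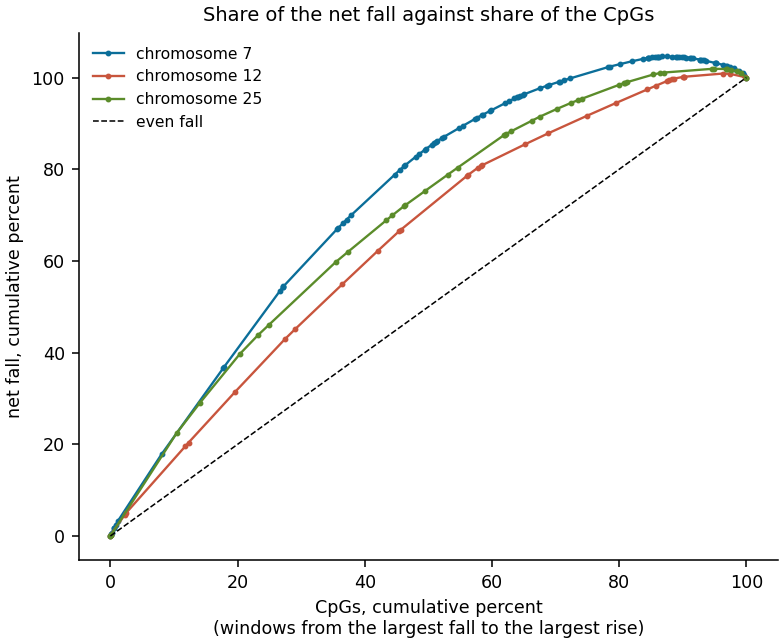
The cumulative percent of each chromosome's net fall (y axis) is drawn against the cumulative percent of its CpGs (x axis), adding 1 Mb windows from the largest fall to the largest rise, with a dashed line for an even fall. With windows in this order a curve must lie above the line, and it passes 100% wherever some windows rise. The bow is largest on chromosome 7, where windows past a fall of 3 points held 45.2% of the CpGs and 79.1% of the net fall. Other chromosomes are not drawn, so the curves do not show whether the fall is more uneven here than elsewhere.

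The largest window means came partly from windows with few CpGs. On chromosome 7 the window from 32000001 to 33000000 differed most, with 66.2% in skin and 58.2% in the sarcoid (-8.02 points, -10.5 to -5.53), over only 69 CpGs, and it had the highest depth ratio of the chromosome, 1.04. The window from 77000001 to 78000000 was at -6.71 points over 208 CpGs with a depth ratio of 0.05, and without its leading tile of 1 kb, at -30.2 points over 18 CpGs, it was at -4.49. The window from 29000001 to 30000000 was at -6.19 points over 130 CpGs with a depth ratio of 0.50. Depth was therefore above the chromosome's median window (0.29) in the first and last of these windows and below it in the second.

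The windows of chromosome 7 with the largest rise also held few CpGs. The one from 93000001 to 94000000 was at 4.39 points over 198 CpGs, and at 1.71 without 1 tile of 23 CpGs that was 24.8 points higher. The one from 59000001 to 60000000 was at 2.80 points over 148 CpGs, and at 1.54 without 1 tile of 9 CpGs. Both values thus leaned on 1 tile each. Larger windows with a higher mean rose by less, such as the one from 87000001 to 88000000, at 0.746 points (0.128 to 1.36) over 835 CpGs.

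On chromosome 12 the window from 1000001 to 2000000 was lowest, from 56.3% in skin to 50.5% in the sarcoid, a difference of -5.75 points (-6.47 to -5.03) over 786 CpGs. The window from 15000001 to 16000000 was at -5.20 points over 80 CpGs, and the third was the CpG-rich window from 9000001 to 10000000 given above, at -4.54. The highest were from 18000001 to 19000000, at 1.53 points over 60 CpGs with an interval that included 0 (-0.533 to 3.59) and -0.142 without 1 tile of 4 CpGs, and from 11000001 to 12000000, at 0.880 points over 830 CpGs. The latter was at 0.434 without 1 tile of 12 CpGs.

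On chromosome 25 all 3 windows of largest fall were CpG-rich. These were the window from 36000001 to 37000000, from 59.7% in skin to 53.4% in the sarcoid (-6.26 points), the window from 30000001 to 31000000 at -5.24 points over 1191 CpGs, and the window from 32000001 to 33000000 at -4.95 points over 2061. They changed little when the leading tile of each was left out, to -6.08, -4.68 and -4.56. The largest rises were from 27000001 to 28000000, at 3.53 points over 274 CpGs, or 1.98 without 1 tile of 17 CpGs, and from 7000001 to 8000000, at 1.64 points over 210 CpGs, or 0.737 without 1 tile of 5 CpGs.

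Differences were scattered at the scale of single tiles and less so in larger bins, here as on the other chromosomes. In tiles of 1 kb with at least 10 CpGs the SD of the differences was 9.29 points on chromosome 7, 11.2 on chromosome 12 and 10.1 on chromosome 25, against counting SDs of 2.25, 2.44 and 2.39. The other 28 chromosomes had an SD of 8.36 against 2.18. In bins of 1 Mb with at least 10 CpGs the SD was 2.29, 2.59 and 2.06 points, and 2.43 on the other chromosomes. Larger bins average more CpGs, so a smaller SD comes with their size. Adjacent tiles resembled each other, with r of 0.32 over 495 pairs, 0.47 over 196 and 0.40 over 147, against 0.34 on the other chromosomes. At 10 kb the r of neighbouring bins was 0.12, 0.08 and 0.16, and at 100 kb it was 0.03, 0.06 and 0.17. At 1 Mb, in bins with at least 10 CpGs, it was 0.30, -0.15 and 0.22. On chromosome 7 neighbours were thus most alike at 1 kb, least at 100 kb and alike again at 1 Mb, where r was 0.15 with the minimum of 50 CpGs used above. Neighbouring bins share libraries and base composition, and these r are descriptions.

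Of tiles with at least 5 member CpGs and 100 reads in each library, 60.3% of 3902 were lower in the sarcoid on chromosome 7, 62.8% of 2601 on chromosome 12 and 61.4% of 2316 on chromosome 25, against 54.7% on the other 28 chromosomes. Tiles at least 25 points lower numbered 146 (3.74%), 126 (4.84%) and 125 (5.40%), beside 2.97% of all such tiles. Tiles at least 25 points higher numbered 50 (1.28%), 44 (1.69%) and 43 (1.86%), beside 1.88%. The tiles with large decreases held only 2.66%, 3.3% and 3.56% of the CpGs and carried 36.6%, 39.8% and 41.6% of the net fall. Without the tiles past 25 points in either direction, chromosome 7 was at -1.79 points, chromosome 12 at -2.25 and chromosome 25 at -2.16, against -0.933 on the other chromosomes, so most of the difference lay outside those tiles.

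The tile of largest fall on chromosome 7 spanned positions 724001 to 725000, in its first megabase. Its 16 CpGs, which lay within 190 bp, had a mean level of 82.8% in skin (range 67.6 to 97.1) and 24.7% in the sarcoid (11.8 to 38.9), a difference of -58.2 points. Pooled over its reads, the level was 83.2% of 673 in skin (Wilson 95% interval 80.2 to 85.8) and 24.8% of 552 in the sarcoid (21.4 to 28.6). A read over several CpGs counts for each, so such intervals are too narrow. All 16 CpGs were at least 25 points lower, and strands gave the same picture, with 84.7% and 22.2% on plus and 82.4% and 26.2% on minus.

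The next tiles of chromosome 7 were from 44806001 to 44807000, where 5 CpGs went from 71.3% in skin to 18.5% in the sarcoid, and from 240001 to 241000, where 5 CpGs went from 81.0% to 29.2%. In the first of these, strands differed by at least 30 points at 2 of 5 CpGs. The tile of largest rise, from 93739001 to 93740000, went from 37.7% to 93.0% over 6 CpGs, with 120 reads in the sarcoid and 290 in skin.

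On chromosome 12 the tile from 968001 to 969000 went from 78.0% in skin (70.6 to 88.9 over 5 CpGs) to 15.6% in the sarcoid (13.2 to 17.3), a difference of -62.4 points. Its reads were all on the minus strand, 178 in skin and 378 in the sarcoid, for a depth ratio of 1.39. The tile from 9290001 to 9291000 went from 71.1% to 12.2% over 10 CpGs, all lower by at least 25 points, and the tile from 27724001 to 27725000 from 85.0% to 27.9% over 6 CpGs. In these the sarcoid library was the shallower one, with depth ratios of -0.50 and -0.33. The first of these had 12 to 30 sarcoid reads per CpG, at 26.7% on the plus strand and 0% on minus. In the second the sarcoid was at 18.3% on plus and 39.6% on minus. The tile of largest rise, from 24994001 to 24995000, went from 34.0% to 94.1% over 5 CpGs within 42 bp, and lay in a window that was lower by 4.39 points as a whole.

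On chromosome 25 the tile from 36957001 to 36958000 went from 79.6% in skin (55.1 to 92.9 over 9 CpGs) to 27.8% in the sarcoid (13.0 to 52.1), a difference of -51.9 points. Plus and minus strands were alike there, at 75.6% and 28.8% on plus and 76.4% and 30.9% on minus. The tile from 30670001 to 30671000 went from 70.5% to 18.7% over 8 CpGs, and the tile from 36692001 to 36693000 from 82.9% to 31.3% over 5. The tile of largest rise, from 18295001 to 18296000, went from 21.3% to 74.6% over 5 CpGs that were read on the minus strand only. Each of the 9 falling tiles was lower at every one of its member CpGs, and they had depth ratios on both sides of 0, from -0.63 to 1.39.

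**Figure D4:**
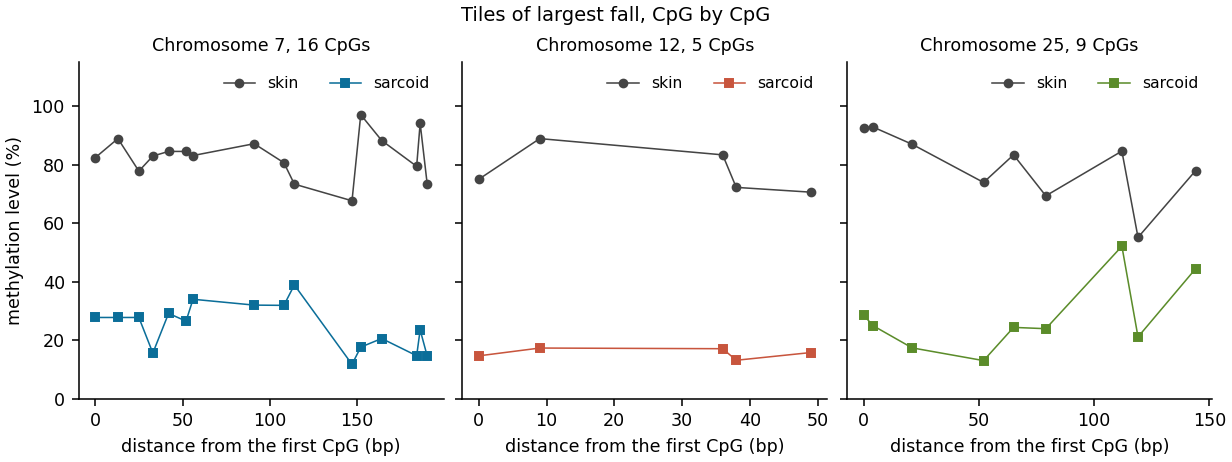
The methylation level in percent (y axis) of each member CpG of the tile of largest fall on chromosomes 7, 12 and 25 is plotted against the distance in bp from the first of them, with circles for skin and squares for the sarcoid. Every CpG is lower in the sarcoid, from 82.8% to 24.7%, 78.0% to 15.6% and 79.6% to 27.8% on average.

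By CpG density, chromosome 7 differed from chromosomes 12 and 25. Density was the number of CpGs listed in either library in the same 1 kb tile, where sparse tiles are mostly methylated and dense tiles mostly not. On chromosome 12 the difference shrank as density rose, from -3.91 points at 1 to 5 CpGs per tile to -3.56 at 6 to 10, -2.76 at 11 to 20, -1.82 at 21 to 40 and -1.03 over 40. Chromosome 25 had -3.10, -3.46, -3.41, -1.72 and -1.01 points in the same classes. Chromosome 7 had -2.14, -2.15, -2.57, -2.65 and -1.62, with its lowest value at 21 to 40 CpGs and the value nearest 0 over 40. The other 28 chromosomes together had -1.85, -1.11, -0.993, -0.441 and -0.0983.

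Chromosome 7 had the lowest value of all chromosomes in tiles of 21 to 40 CpGs and not in sparse ones. In tiles of 21 to 40 CpGs the other 28 chromosomes ran from -2.02 to 1.06 points, and chromosome 7, at -2.65 (-2.78 to -2.53), lay below that range while chromosomes 12 and 25 lay inside it. In tiles of over 40 CpGs the others ran from -2.11 to 1.76, and all 3 chromosomes lay inside that range. In tiles of 1 to 5 CpGs the others ran from -2.83 to -0.877 points, and chromosomes 12 and 25 lay below that range while chromosome 7 lay inside it. Tiles of over 20 CpGs held 37.5% of the CpGs of chromosome 7 and 38.7% of its net fall. They held 24.8% of the CpGs and 14.5% of the net fall on chromosome 12, and 24.5% and 13.2% on chromosome 25.

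In the 2 places of chromosome 7 that carried most of its net fall, CpGs in dense tiles had a higher skin mean than elsewhere. The places were chosen for their fall, of which the skin level is a part. In the first 4 Mb and the 49 to 50 Mb window, the 11185 CpGs in tiles of over 20 CpGs had a mean of 52.8% in skin and 48.5% in the sarcoid, a difference of -4.25 points. The 11112 such CpGs elsewhere on the chromosome had 23.5% and 22.9%, a difference of -0.648. On the other 28 chromosomes CpGs in such tiles were at 19.0% in skin and differed by -0.361. By the mean level of both libraries, 32.7% of the dense CpGs in those 2 places were at 80% or more, against 11.1% on the other chromosomes. By the same measure 30.4% were under 20%, against 74.1%. The largest differences there were at dense CpGs with a mean of both libraries of 40 to 60%, which went from 57.0% in skin to 43.3% in the sarcoid.

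CpGs were also classed by the mean level of both libraries. Classes of intermediate mean level carried the decrease on all 3 chromosomes. At 40 to 60% the difference was -9.34 points on chromosome 7, -8.88 on chromosome 12 and -10.2 on chromosome 25, against -5.09 on the other chromosomes. At 20 to 40% it was -8.64, -9.25 and -9.15 points, against -4.29. CpGs at 60 to 80% were at -4.36, -4.17 and -4.48 points, against -2.48.

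At the ends of the scale, where a class limits how far its CpGs can differ, the differences were small. CpGs at 0 to 20% were at -1.0, -1.17 and -1.15 points, against -0.369 on the other chromosomes. CpGs at 80 to 100%, the most methylated, went the other way on these chromosomes, by 1.33, 0.901 and 1.34 points, and by 1.32 on the others. The top class was thus slightly higher in the sarcoid here as elsewhere, and the net fall lay in the classes below 80%. A CpG high in skin that fell far is counted in a lower class, so these values do not show how CpGs high in skin behaved. The classes are cut from the measured values themselves, so they describe and do not test.

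The make-up of the chromosomes is given here as a description, since their means were what chose them. Given the class means of the other 28 chromosomes, the density classes of chromosome 7 would average -0.922 points, those of chromosome 12 -1.02 and those of chromosome 25 -1.05. With density and level together the averages would be -0.941, -1.19 and -1.20 points, and with CpG-rich windows as a further class -1.06, -1.49 and -1.44. The observed means were -2.38, -2.90 and -2.91 points, and an excess over such averages comes with the choice of the chromosomes, so nothing is read from it.

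**Figure D5:**
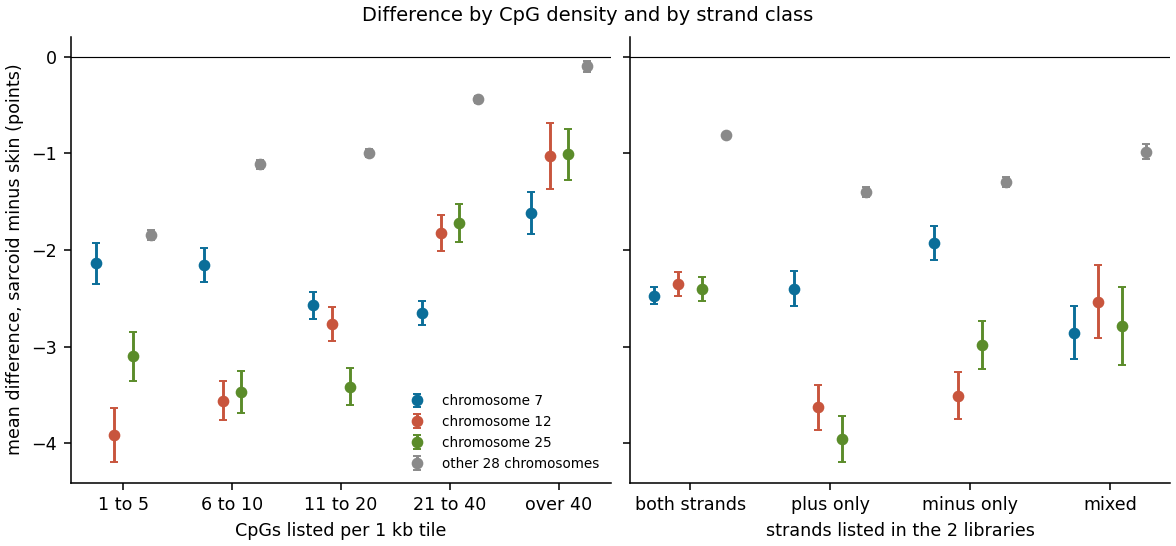
Mean methylation difference in points (y axis, bars are 95% counting intervals) by CpG density per 1 kb tile (left) and by the strands listed in the libraries (right), for chromosomes 7, 12 and 25 and the other 28 together. Every class of every chromosome lies below 0, and all 3 chromosomes come closest to 0 over 40 CpGs per tile, chromosome 7 only from its lowest value of -2.65 at 21 to 40.

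By strand, the decrease was present in every class. CpGs were classed by whether both strands, only plus or only minus were listed in both libraries, or otherwise (mixed). With both strands the difference was -2.47 points on chromosome 7, -2.35 on chromosome 12 and -2.40 on chromosome 25, against -0.812 on the other chromosomes. With plus only it was -2.40, -3.63 and -3.96 points, against -1.40. With minus only it was -1.93, -3.51 and -2.98 points, against -1.30, and in the mixed class -2.85, -2.53 and -2.79 against -0.982.

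On chromosomes 12 and 25 CpGs read on 1 strand thus differed by more than those read on both, while on chromosome 7 those read on minus only differed by less (-2.11 to -1.75, against -2.56 to -2.38 with both). CpGs with both strands carried 51.3% of the net fall of chromosome 7, 38.1% of that of chromosome 12 and 39.3% of that of chromosome 25. Depth differed between the classes: the ratio was 0.48, 0.45 and 0.46 with both strands and between -0.10 and -0.08 with 1 strand. On the other 28 chromosomes it was 0.29 with both strands, -0.28 with plus only and -0.29 with minus only, so within each class the sarcoid library was deeper on these chromosomes than on the others. The part of depth in the class values was not tested.

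Strands of the same CpG gave like answers. At the 17984, 10335 and 9550 CpGs with at least 10 reads on each strand in both libraries, the plus strand differed by -2.28, -2.13 and -2.55 points and the minus strand by -2.40, -1.95 and -2.12. The r of the plus and minus differences over CpGs was 0.58, 0.61 and 0.60, against 0.53 on the other chromosomes. Both strands were at least 25 points lower at 777, 504 and 487 CpGs, and both at least 25 points higher at 266, 247 and 169. Over windows, the r of plus and minus was 0.63 (81 windows), 0.71 (26) and 0.78 (34), and both strands were lower in 49, 22 and 25 of them.

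Some CpGs had unlike levels on their strands, which a level summed over strands averages. Strands at least 30 points apart in either library made up 14.5%, 16.1% and 15.6% of the CpGs with both strands covered, against 15.5% on the other chromosomes. Their difference was -3.43, -3.02 and -3.05 points, and where strands were less than 30 points apart it was -2.19, -1.89 and -2.21. The other chromosomes had -1.73 and -0.652. With a limit of 50 points the order turned on chromosome 7 (-2.30 apart, -2.38 alike) and chromosome 25 (-1.68 apart, -2.42 alike), and on chromosome 12 it was -2.47 and -2.02. At less than 30 points apart, chromosome 12 had the smallest value of the 3, which lay below the -1.69 points that marked the lower end of the other 28 chromosomes in the same set.

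Depth did not follow the decrease from window to window in a constant way. Over windows with at least 50 CpGs, r of the difference and the depth ratio was -0.11 on chromosome 7 (rho -0.04, 90 windows), -0.23 on chromosome 12 (rho -0.13, 31) and 0.32 on chromosome 25 (rho 0.32, 39). In windows of 2 Mb r was 0.055, -0.42 and 0.50. On the other 28 chromosomes r ran from -0.38 to 0.21. The sarcoid ratio was above 0 in all 160 windows of these chromosomes, in 395 of 403 windows of the other 7 deep chromosomes and in 55.0% of those of the other 21. Relative to the median chromosome, depth was thus raised in every such window of each chromosome. The part of depth in the window differences was not tested.

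The depth ratio itself was highest in windows with few CpGs, with a rho of -0.53, -0.50 and -0.52 between the ratio and the number of CpGs. Windows were therefore ordered by depth ratio and cut into 3 sets of equal or nearly equal number. On chromosome 7 the mean over CpGs was -1.82 points in the set of lowest ratio, -3.14 in the middle set and -1.41 in the set of highest ratio. On chromosome 12 it was -2.52, -3.13 and -3.26 points. On chromosome 25 it was -2.54, -3.69 and -0.291 points, so the deepest windows of that chromosome showed the smallest difference. Medians over windows, which weigh small windows as much as large ones, ran otherwise: -0.966, -1.14 and -1.51 points on chromosome 7, -2.12, -2.63 and -2.26 on chromosome 12, and -2.84, -2.46 and -1.22 on chromosome 25. The order of the sets thus depended on the weighting on each chromosome.

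Within the CpG-rich windows alone r was negative on each chromosome. There r of difference and depth ratio was -0.48 on chromosome 7 (12 windows), -0.32 on chromosome 12 (13) and -0.52 on chromosome 25 (12). The rho was -0.38, -0.19 and -0.46. The deeper of these few windows thus tended to be lower in the sarcoid, least so on chromosome 12. Their depth ratios spanned 0.18 to 0.26, 0.09 to 0.27 and 0.07 to 0.29. On 3 other deep chromosomes with at least 6 such windows r was between -0.13 and 0.03. On 6 of the other 21 chromosomes it was between -0.04 and 0.22. Windows share libraries, and depth and level can both move with base composition, so these r are descriptions and the part of depth was not tested.

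The skin level was also set beside the difference, over all windows with at least 50 CpGs. There r of difference and skin level was -0.31 on chromosome 7, -0.50 on chromosome 12 and -0.40 on chromosome 25, with rho of -0.37, -0.54 and -0.39. Windows with a higher skin level tended to be lower in the sarcoid. The skin level is part of the difference, so counting error in skin moves both and adds to such an r.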

How the data were processed

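For each library the deposited file holds, per the file headers, the coverage of every listed CpG cytosine by strand, as a count of reads, and what percent of them read C or T. FastQC, BSMAP and methylKit are named in the submitters' processing notes, without versions, and the genome build is not given in the sources used here, so coordinates are those of the deposited files. The labels' protocols describe RRBS of tissue DNA with 1 lane of single-end reads per library. The skin library held 48650606 reads over 1701575 cytosines and the sarcoid library 35970547 over 1655782. Member CpGs had median coverage of 41, 41 and 40 reads in skin and 34, 33 and 33 in the sarcoid on chromosomes 7, 12 and 25.

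Methylated read numbers were computed from coverage and the percent reading C and rounded, and strands were summed (minus strand positions less 1). Levels were averaged with equal weight per CpG. Counting intervals (95%) use the binomial variance of each CpG or, for pooled reads, Wilson's method. Without molecular identifiers, PCR copies count as separate reads. The members and lists were chosen with earlier results of these data known. With 1 library per tissue and members chosen on the contrast, no test was made. Windows named are the 3 of largest fall and 2 of largest rise per chromosome (at least 50 CpGs), and tiles the 3 of largest fall and the 1 of largest rise (at least 5 CpGs and 100 reads). The limit of 1000 CpGs for CpG-rich windows, the limit of 3 points, the stretches of Mb and the count of dense CpGs by place were chosen after values were seen. Alternatives covered the minimum reads, coverage, weights, strands, window size, density measure and depth measure. A deposited table of chromosome 1 was not used. No annotation of the build was at hand, so no gene is named. Scripts used NumPy 2.4.6, pandas 2.3.3, SciPy 1.17.1 and matplotlib 3.10.9 under Python 3.11.15 and were tested on simulated data.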

Additional observations from a re-analysis of the deposited data

How the results depend on the processing

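The mean stayed below 0 on chromosomes 7, 12 and 25 under each alternative run. Of 96 values computed under alternatives, 44 stayed within the range set around the value reported, 51 are counted as moved and 1 reversed. The range was the 95% interval of counting error for means, a binomial 95% interval for shares of windows and a Fisher 95% interval for r. For shares of the net fall it was 5 points either way. Shares of the CpGs had no range and are counted among the 51. No paired analysis was possible because there is 1 library per tissue and the labels give no replicate numbers. In the order of chromosomes 7, 12 and 25, the mean was -4.03, -5.37 and -4.51 points weighted by reads, -2.48, -2.80 and -3.20 on the plus strand, -2.27, -2.63 and -2.33 on the minus strand, and -2.19, -1.89 and -2.21 with both strands covered and less than 30 points apart. At 20 reads chromosome 7 was at -2.55 and chromosome 25 at -3.05, and at 5 reads chromosome 12 was at -2.79. With tiles counted equally chromosome 12 was at -3.57 and chromosome 25 at -3.41, and with 10 reads drawn per CpG chromosome 25 was at -3.05. Chosen after seeing the data, the means without the 3 windows that carried most were -1.59, -2.49 and -2.13, and without tiles of any size past 25 points, -1.63, -1.95 and -1.76. Windows of 2 Mb were lower in 80% on chromosome 7 and 100% on chromosome 12, and tiles counted equally gave 80% of windows on chromosome 7. The r with depth was 0.055, -0.42 and 0.50 with 2 Mb windows, and the first of these is the value that reversed. Sparse tiles (1 to 5 CpGs) of chromosome 12 were at -4.36 and tiles of 21 to 40 at -1.46 with density within 500 bp, and the latter at -2.06 from 20 reads. At 20 reads plus only was -2.79 and minus only -2.30 on chromosome 7, and plus only -4.85 on chromosome 25. With strands at least 50 points apart, CpGs apart were at -2.30, -2.47 and -1.68 and CpGs alike at -2.38, -2.02 and -2.42. The share of the net fall in CpG-rich windows was 87.5%, 96.0% and 95.1% from 500 CpGs (chosen after seeing the data, as is the next) and 73.7%, 67.7% and 54.5% from 2000, beside 74.5%, 92.8% and 86.5% of the CpGs from 500 and 46.6%, 61.2% and 41.8% from 2000. The cause of these shifts was not tested. At 10 reads a level moves in steps of 10 points, which limits what a single CpG can show.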
